A study of Mus musculus with 8 samples.

Results

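The Ms4a genes studied here were the 5 members named for their expression in myeloid cells, Ms4a4c, Ms4a6b, Ms4a6c, Ms4a6d and Ms4a7, of 14 Ms4a genes and 16889 genes in the UMI table of colonic myeloid cells. A unique molecular identifier (UMI) marks each captured RNA molecule, so a UMI count is a count of molecules. The members were chosen by their measured levels in monocyte and macrophage clusters and their change by condition, so these values are a description of the family, and a call of a member is no independent evidence for a pattern of the family. They were looked up by gene symbol, and all 5 passed the filter on low counts.

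Single-cell RNA sequencing was performed on CD11b+ cells of the colonic lamina propria, sorted for CCR2 or CD64, from 4 control and 4 cKO mice. All 8 mice were female littermates of the CD98hcΔCX3CR1 line, which carries floxed CD98hc, the gene Slc3a2, together with Cx3cr1CreER-YFP, a tamoxifen-inducible Cre recombinase and a yellow fluorescent reporter driven by Cx3cr1. The cKO mice (replicates 5 to 8) received 100 µl of tamoxifen at 20 mg/ml into the peritoneum on each of 5 days, the control mice (replicates 1 to 4) received the corn oil carrier, and cells were taken on day 7. This dose is the one in the labels, while the study's methods state it per body weight. Since only cKO mice received tamoxifen, effects of the drug and of the deletion cannot be told apart, and recombination is limited to cells that express, or descend from cells that expressed, Cx3cr1. The level of Slc3a2 does not check the deletion in a count of 3′ ends, and it was 337 ± 117 CPM (UMIs of a gene when all UMIs of a mouse are scaled to 1000000) in control and 320 ± 27.9 in cKO mice (mean ± SD, n = 4 each).

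Ms4a genes encode small proteins that cross the membrane several times and sit as neighbours in a gene cluster. The best known are Ms4a1, which encodes the B cell antigen CD20, and Ms4a2, a chain of the high-affinity IgE receptor. Other members are expressed by monocytes, macrophages or T cells, where several have been found next to receptors that they modulate. In the colon, blood monocytes enter the lamina propria continuously and mature there into resident macrophages, and genes of both stages are therefore measured side by side in a sort of CCR2 or CD64 positive cells.

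On mouse chromosome 19 (GRCm38, GENCODE annotation), 19 Ms4a genes lay within 679 kb, and the 5 members within 284 kb. Ms4a7 (chr19:11321039-11336146, minus strand) was followed by Ms4a4c (chr19:11404770-11427246, plus), Ms4a6c (chr19:11469366-11482192, plus), Ms4a6b (chr19:11516512-11531256, plus) and Ms4a6d (chr19:11586604-11604849, minus). Slc3a2 lies on the same chromosome, and Ms4a7 began 2598 kb and Ms4a6d 2863 kb beyond its end. The sequences below, the 250 bases before the RefSeq transcript start (GRCm38.p6, written 5′ to 3′ on the gene's strand), are shown because Ms4a6b and Ms4a6c, and the neighbours Ms4a4c and Ms4a4b, hold an identical run of bases there. Such a window was found for 4 of the 5 members, without Ms4a6d, and the window of Ms4a4b, the neighbour of Ms4a4c, is added. Capitals mark the longest run of bases shared by Ms4a4c and Ms4a4b and by Ms4a6b and Ms4a6c.
Ms4a4c: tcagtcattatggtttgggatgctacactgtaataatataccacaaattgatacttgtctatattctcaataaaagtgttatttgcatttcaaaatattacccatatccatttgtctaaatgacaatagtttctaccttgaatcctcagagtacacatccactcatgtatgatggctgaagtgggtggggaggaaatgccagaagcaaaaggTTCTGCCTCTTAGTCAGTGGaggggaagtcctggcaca
Ms4a4b: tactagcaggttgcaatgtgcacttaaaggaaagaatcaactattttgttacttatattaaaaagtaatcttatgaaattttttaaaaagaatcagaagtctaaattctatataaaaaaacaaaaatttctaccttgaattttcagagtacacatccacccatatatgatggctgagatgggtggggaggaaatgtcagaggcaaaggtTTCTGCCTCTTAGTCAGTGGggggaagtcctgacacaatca
Ms4a6b: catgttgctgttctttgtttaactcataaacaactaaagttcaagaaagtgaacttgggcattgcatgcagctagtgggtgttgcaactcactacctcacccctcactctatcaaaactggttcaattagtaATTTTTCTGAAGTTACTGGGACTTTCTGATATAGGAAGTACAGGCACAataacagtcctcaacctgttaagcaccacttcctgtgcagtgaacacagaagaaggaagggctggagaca
Ms4a6c: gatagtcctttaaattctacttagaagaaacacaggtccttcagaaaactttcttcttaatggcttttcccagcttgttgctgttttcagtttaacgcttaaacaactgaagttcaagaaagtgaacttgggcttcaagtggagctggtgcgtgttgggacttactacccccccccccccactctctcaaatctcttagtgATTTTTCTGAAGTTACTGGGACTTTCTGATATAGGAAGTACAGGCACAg
Ms4a7: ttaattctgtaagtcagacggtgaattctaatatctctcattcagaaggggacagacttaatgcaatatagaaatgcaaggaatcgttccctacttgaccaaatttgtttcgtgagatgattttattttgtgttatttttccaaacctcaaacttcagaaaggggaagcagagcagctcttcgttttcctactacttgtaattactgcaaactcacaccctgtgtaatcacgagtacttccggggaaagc

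These windows lie at chr19:11407411-11407660 for Ms4a4c, chr19:11443308-11443557 for Ms4a4b, chr19:11518309-11518558 for Ms4a6b, chr19:11469118-11469367 for Ms4a6c (all plus strand) and chr19:11336147-11336396 for Ms4a7 (minus strand). The windows of Ms4a4c and Ms4a6b lie inside the longer GENCODE gene span, downstream of its first base. Ms4a6b and Ms4a6c shared 48 bases without a mismatch, and Ms4a4c and Ms4a4b shared 20, whereas Ms4a7 shared at most 9 in a row with any of the others. The letters GAAA, any 2 bases and GAAA again, the core of the interferon-stimulated response element, were searched on both strands from 250 bases before to 50 after the start and stood in none of the 4 member promoters, against 2.98% of 32851 mouse promoters. TTCNNNGAA, the core of STAT binding sites, stood in none of the 4 either, against 7.02% of all promoters. GAGGAA, a core bound by PU.1, the factor of the myeloid lineage, began 61 bases before the start of Ms4a4c and 64 before that of Ms4a4b, and stood in 23.3% of all promoters. These matches of letters are descriptions and not binding sites.

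The filters of the study left 3213 cells, 1863 from control and 1350 from cKO mice, with 497531 to 3762314 UMIs per mouse. Control replicate 3 and cKO replicate 5 stood apart with 85 and 83 cells, where the other mice had 349 to 724, and a doublet caller marked 24 of the 83 cells of replicate 5 and 58 cKO against 15 control cells in all. Only 8 of the kept cell barcodes occurred in more than 1 well. Clusters were made without any Ms4a gene and named from fixed markers. These were a monocyte-like class (621 cells, with Dmkn, Chil3 and Ly6c2 among its leading genes) and a macrophage-like class (713 cells) of 2 clusters. The larger of these clusters (441 cells) had Fcrls, C1qc, Pf4, C1qa and Apoe among its leading genes. The smaller (272 cells, 134 of them from cKO mice) was led by Ccl8, Pf4, Cela1, Folr2 and Npl, and C1q genes and Apoe were not among its leading genes. There were also a dendritic cell-like (511), a lymphoid-like (220) and a stromal-like class (86 cells). A further 3 clusters were named by no marker list and are called here by their leading gene, Spon1 (535 cells), Arg1 (266) and Cebpb (261). The Cebpb cells were shallow, with a median of 1561 UMIs. Relative to the median UMI count of their own mouse, their median was 0.324, against 1.06 for Spon1 and 1.13 for Arg1 cells.

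Across all cells, the first question was which members differed between control and cKO mice when every kept cell of a mouse was summed. Ms4a4c, Ms4a6b and Ms4a6c were higher in cKO mice, by 3.82-fold, 2.28-fold and 2.03-fold, whereas Ms4a6d did not pass the test and Ms4a7, the macrophage member, was measured at nearly the same mean in both groups. These 3 of 5 members stand beside 2.99% of the 11387 genes tested that were higher in cKO mice at an adjusted p under 0.05 (4.48% in either direction), in a contrast that had been used to choose the members.

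Ms4a4c, known as a monocyte gene that interferon induces, was measured at 376, 229, 266 and 502 CPM in control replicates 1 to 4. In cKO replicates 5 to 8 its level was 810, 928, 1833 and 1309.7 CPM. Every cKO mouse lay above every control mouse, and replicate 7 was the highest of all. The log2 fold change was 1.93 ± 0.30 (SE, adjusted p = 0.0047, edgeR quasi-likelihood test with Benjamini-Hochberg adjustment over all genes). Ms4a6b, a member also known from T cells, was measured at 477, 352, 414 and 483 CPM in control and at 874, 759, 1107 and 939 CPM in cKO mice. The groups did not overlap, and the log2 fold change was 1.19 ± 0.17 (SE, edgeR adjusted p = 0.00296). For Ms4a6c the levels were 911, 627, 698 and 931 CPM in control mice against 1349, 1342, 1777 and 1547 CPM in cKO mice. They were again separate, with a log2 fold change of 1.02 ± 0.17 (SE, edgeR adjusted p = 0.00747).

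Ms4a6d was measured at 489, 291, 319 and 662 CPM in control and at 484, 652, 1692 and 983 CPM in cKO mice. Here the groups overlapped, with replicate 5 at the level of the control mice and replicate 7 far above the rest. Its log2 fold change of 1.23 ± 0.37 (SE) had an edgeR adjusted p of 0.0823. Without control replicate 4 or cKO replicate 5 it passed, with log2 fold changes of 1.48 and 1.46 and adjusted p of 0.0386 and 0.0435. Ms4a7 was measured at 468, 500, 287 and 243 CPM in control and at 406, 291, 376 and 414 CPM in cKO mice. The range of the cKO mice lay inside that of the control mice, and the log2 fold change was 0.08 ± 0.22 (SE, edgeR adjusted p = 0.883). By library size alone, which moved the median over all genes from -0.03 to -0.13, it was -0.02.

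The same 3 members had groups without overlap, in a comparison where 4% of all genes had every cKO mouse above every control mouse on the unscaled CPM and 5.86% after TMM scaling, the trimmed-mean scaling that edgeR applies. With control replicate 3 and cKO replicate 5 left out, Ms4a4c, Ms4a6b and Ms4a6c still passed, with log2 fold changes of 2.02, 1.23 and 1.05 and edgeR adjusted p of 0.013, 0.0119 and 0.0206.

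**Figure D1:**
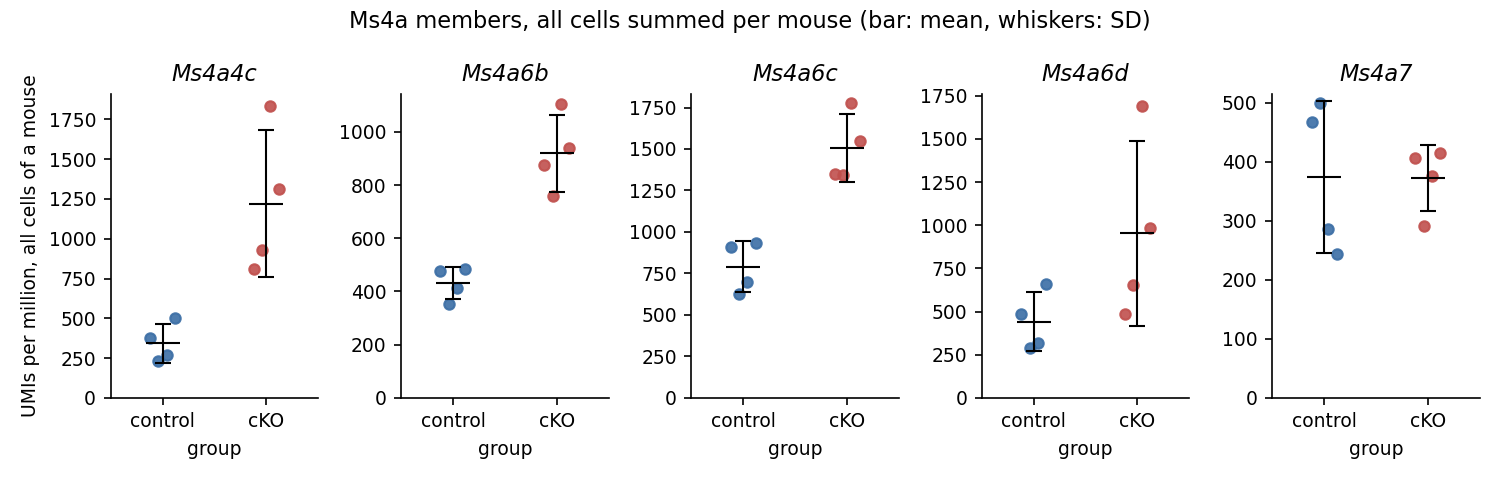
CPM of the 5 members in all kept cells of each mouse, with 1 point per mouse, a bar at the mean and whiskers of 1 SD (n = 4 each). Ms4a4c, Ms4a6b and Ms4a6c have all cKO mice above all control mice, Ms4a6d and Ms4a7 do not.

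The cell makeup moved with these values. Monocyte-like cells were 9.81, 7.13, 3.53 and 11.7% of the cells of the control mice and 16.9, 27.5, 44.2 and 28.3% of those of the cKO mice, and macrophage-like cells were 31.2, 35.8, 25.9 and 11.8% against 22.9, 15.5, 10.7 and 21.7%. Dendritic cell-like cells were 19.1 to 27.3% of control and 4.34 to 9.22% of cKO cells. In control mice every member but Ms4a4c was lower in them than in monocyte-like and macrophage-like cells. Ms4a4c, at 106 to 410 CPM in dendritic cell-like cells, overlapped the 113 to 169 CPM of macrophage-like cells. In a sum over cells, more cells of a type and more RNA per cell cannot be told apart. When only the monocyte-like, macrophage-like, Spon1, Arg1 and Cebpb cells were summed, the log2 fold change of Ms4a4c was 1.70 (edgeR adjusted p = 0.00126), that of Ms4a6b 0.70 (0.0159), that of Ms4a6c 0.60 (0.0313) and that of Ms4a6d 0.76 (0.21). Ms4a7 turned to -0.57 in this sum without passing the test (edgeR adjusted p = 0.23). The monocyte list of 10 markers, all detected in every mouse, summed to 1647 to 3369 CPM in control and 7115 to 10482 CPM in cKO mice, and the macrophage list of 18 markers to 11790 to 23702 and 9659 to 15951 CPM.

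The level of each member by cell class is given next as a description, since the members were named for it. Ms4a7 was a gene of the macrophage-like cells, at 1361 to 1573 CPM in the 4 control mice, while the monocyte-like cells of 3 control mice, those with at least 20 such cells, held 19.0 to 63.6 CPM. Between these stood the Cebpb (290 to 586 CPM), Spon1 (162 to 396 CPM) and Arg1 cells (141 CPM in both mice with enough cells). The dendritic cell-like cells, at 9.80 to 18.2 CPM, were low like the stromal-like cells of 1 control mouse (14.1 CPM). The 174 monocyte-like cells of control mice held 29 UMIs of Ms4a7, so their level is near the floor and differences from it rest on few counts. The ranges of the Cebpb and Spon1 cells overlapped, as did those of the monocyte-like and lymphoid-like cells (29.3 to 56.5 CPM).

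Ms4a4c had another order. In control mice it was highest in monocyte-like cells, at 1174, 1246 and 1080 CPM in replicates 1, 2 and 4, and in Arg1 cells, at 1138 and 767 CPM, and these overlapped. Spon1 cells held 465 to 742 CPM, Cebpb cells 281 to 409 CPM and dendritic cell-like cells 106 to 410 CPM. Macrophage-like cells, at 113 to 169 CPM, lay within the range of the dendritic cell-like cells, and lymphoid-like cells at 29.3 to 70.6 CPM were below both.

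Within a mouse, the monocyte-like cells held more Ms4a4c than the macrophage-like cells by 2.39 ± 0.81 on the scale of log2(CPM + 10) (SD over 6 mice with at least 20 cells of both classes). This difference was 2.90, 3.36 and 3.08 in the control and 1.77, 1.56 and 1.65 in the cKO mice. For Ms4a7 the difference was -5.05 ± 0.64, from -5.77 to -4.25, with like means in control (-5.08) and cKO mice (-5.01). The 3 Ms4a6 members were only a little higher in monocyte-like than in macrophage-like cells, by 0.70 ± 0.12 for Ms4a6b, 0.76 ± 0.17 for Ms4a6c and 0.50 ± 0.47 for Ms4a6d (SD, n = 6 mice). Ms4a6d was thus the most variable of them, at 0.17 to 0.24 in control and 0.21, 0.91 and 1.27 in cKO mice.

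The Ms4a6 members were found in monocyte-like and macrophage-like cells and in the 3 clusters without a name. In control mice, Ms4a6c was at 1782 to 1848 CPM in monocyte-like, 952 to 1341 CPM in macrophage-like, 1139 to 1501 CPM in Spon1 and 207 to 423 CPM in dendritic cell-like cells. Ms4a6b was at 911 to 1096 CPM in monocyte-like, 614 to 874 CPM in macrophage-like and 66.9 to 178 CPM in dendritic cell-like cells. Ms4a6d was highest in Arg1 cells, at 2066 and 1419 CPM in control and 1765, 2469 and 2669 CPM in cKO mice, against 595 to 858 CPM in the monocyte-like cells of control mice. The control ranges did not overlap, while the cKO ranges did, as cKO monocyte-like cells reached 1996 CPM. The leading genes of the Arg1 cluster include Saa3, Acod1 and Il1rn, genes known from activated macrophages. Stromal-like cells, which should lack these genes, held 0 to 14.1 CPM of each member in the 1 control mouse with at least 20 of them.

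**Figure D2:**
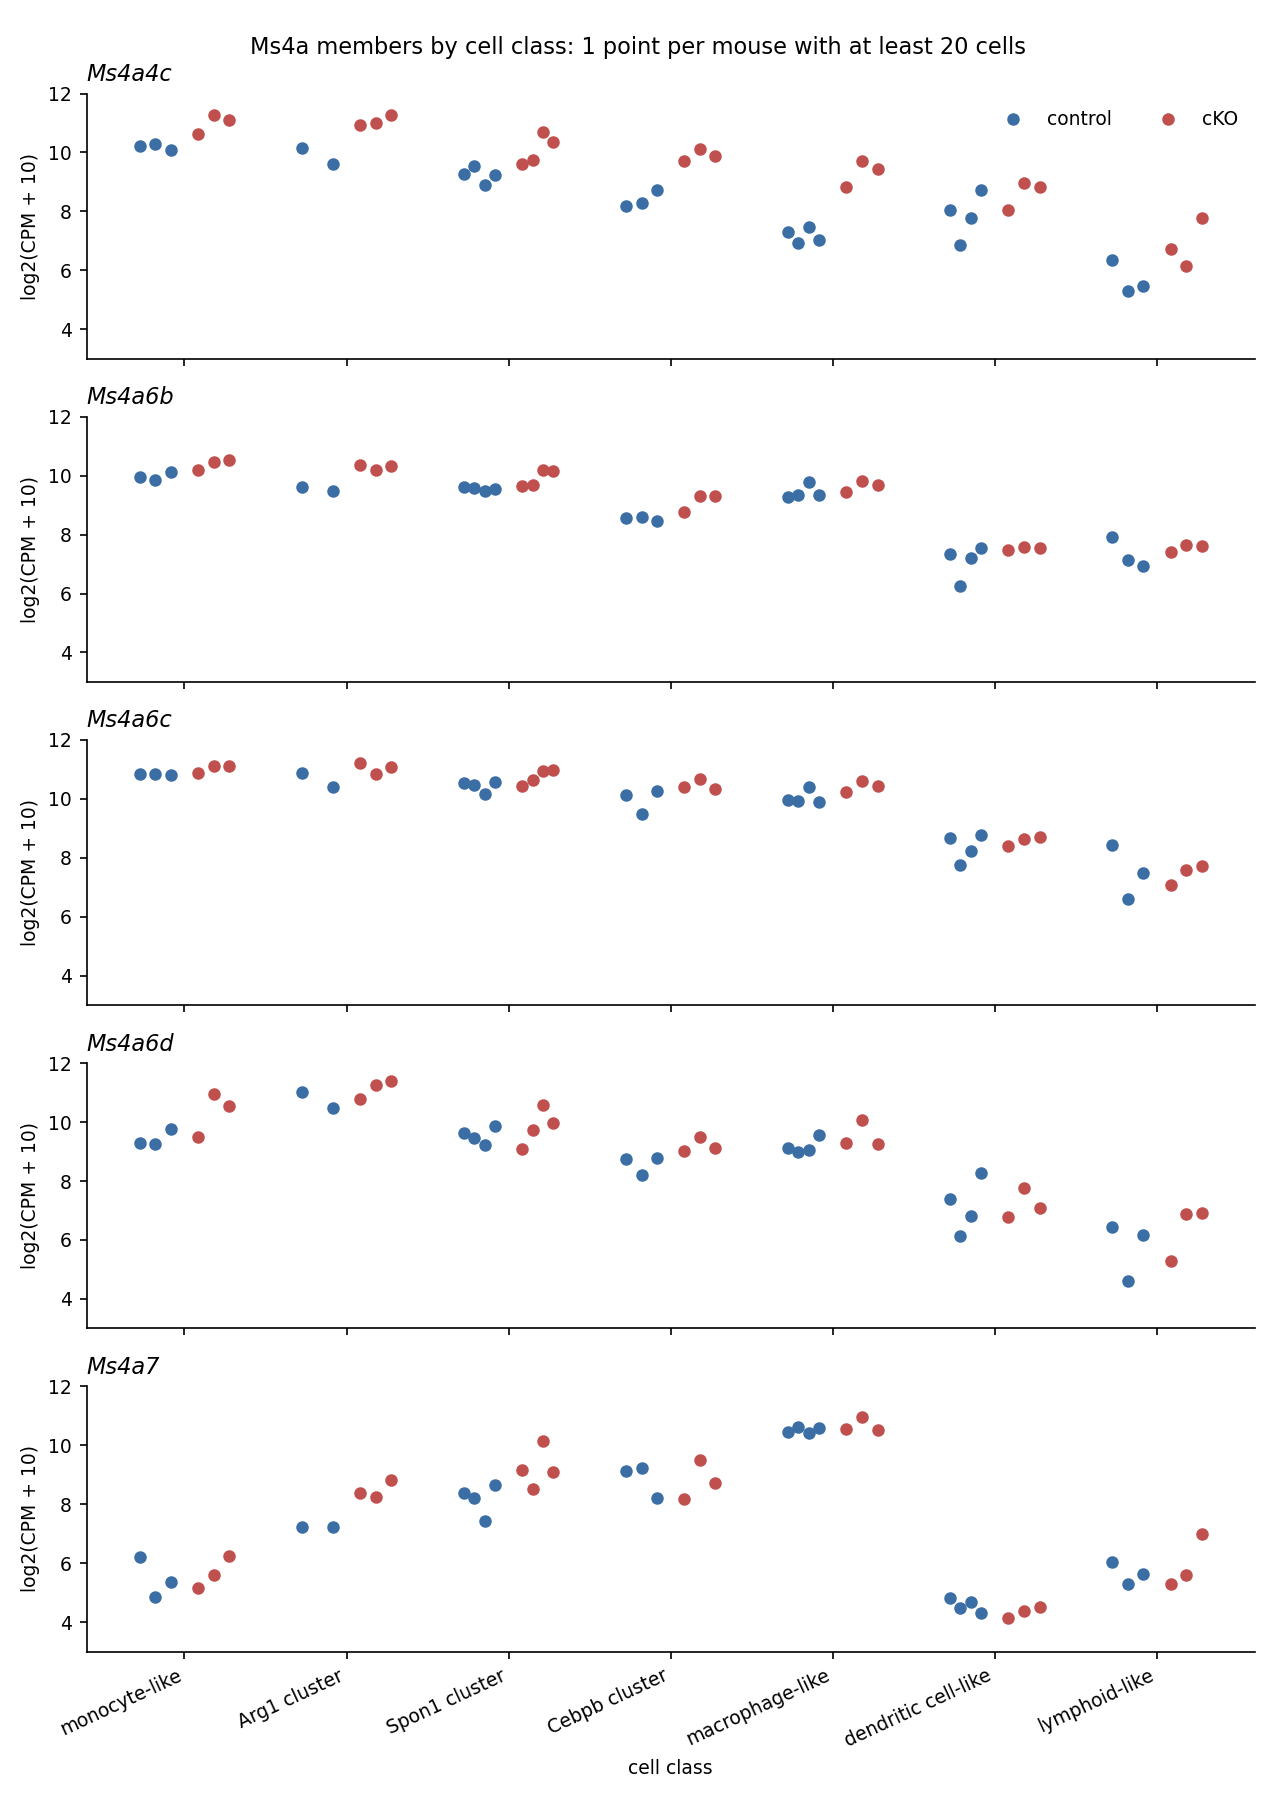
Level of each member on the scale of log2(CPM + 10) by cell class, with 1 point per mouse that had at least 20 cells of the class, blue for control and red for cKO mice. Ms4a7 is highest in macrophage-like cells, Ms4a4c is high in monocyte-like and Arg1 cells, whose ranges overlap, and in macrophage-like cells every cKO point of Ms4a4c lies above every control point.

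The next question was whether the members differed between control and cKO mice within a class of cells. Of the 5 members, Ms4a4c was higher in cKO macrophage-like cells (4.76-fold) and Ms4a7 in cKO Spon1 cells (2.03-fold), and no member passed the test in monocyte-like, Arg1, Cebpb, dendritic cell-like or lymphoid-like cells. Over the 11122 genes of the joint edgeR fit, the shares called in either direction were 0.629% in macrophage-like, 0.791% in Spon1, 0.746% in monocyte-like, 0.512% in Arg1, 0.00899% in Cebpb, 0.324% in dendritic cell-like and 0.162% in lymphoid-like cells. Those called higher in cKO mice were 0.387% in macrophage-like and 0.602% in Spon1 cells. Within a class, the share of all genes without overlap between the groups was not measured. Statements of overlap within a class therefore only describe the members' values.

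In macrophage-like cells, Ms4a4c was measured at 149, 113, 169 and 119 CPM in the control mice and at 447, 828 and 684 CPM in cKO replicates 6, 7 and 8. All 3 cKO mice lay above all 4 control mice. Replicate 5, with 19 macrophage-like cells, was not in the fit and stood at 513 CPM. The log2 fold change was 2.25 ± 0.30 (SE, adjusted p = 1.2e-06, edgeR quasi-likelihood test with Benjamini-Hochberg adjustment). This class held 2 clusters that the groups filled unequally. A cluster of full depth (441 cells) had 356 of its cells from control mice, and a cluster of low depth (272 cells), whose cells held 0.244 times the median UMI count of their own mouse, had 138 from control and 134 from cKO mice. In sums of at least 10 cells of either cluster alone, a split added after the data were seen, the log2 fold change was 2.08 ± 0.34 (SE, adjusted p = 7.39e-05) at full depth and 2.97 ± 0.48 (0.000121, edgeR) at low depth.

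Other lists moved with Ms4a4c in these cells. The 10 monocyte markers summed to 424 to 806 CPM in control and 1252 to 1528 CPM in cKO macrophage-like cells, with 0 to 4 of them at 0 in a mouse, against 11572 to 17419 CPM in monocyte-like cells. Of these markers, 2 were higher and none lower in cKO macrophage-like cells (median log2 fold change 1.09, against -0.12 over all genes). This count and the next stand beside 0.387% of all genes called higher in these cells. Of 29 interferon response genes tested, 10 were higher and none lower (median 1.72), and their summed level was 937, 1396, 3159 and 1389 CPM in control and 3665, 4324 and 4310 CPM in cKO mice, with control replicate 3 high among the control mice. The macrophage markers summed to 55612 to 70987 CPM in control and 39562 to 54828 CPM in cKO mice, with none of the 18 past the test (median -0.40). Their part in the change of Ms4a4c was not tested.

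In monocyte-like, Spon1, Arg1 and Cebpb cells, Ms4a4c did not pass the test, and each log2 fold change was above 0. In monocyte-like cells it was measured at 1174, 1246 and 1080 CPM in control and 1554, 2462 and 2170 CPM in cKO mice. The log2 fold change was 0.96 ± 0.29 (SE, edgeR adjusted p = 0.131). In Cebpb cells Ms4a4c was at 281, 300 and 409 against 823, 1092 and 938 CPM, with a log2 fold change of 1.51 ± 0.36 (SE, edgeR adjusted p = 0.105). Spon1 cells held 601, 742, 465 and 587 CPM in control and 770, 851, 1651 and 1286 CPM in cKO mice. There the log2 fold change was 0.87 ± 0.26 (SE, edgeR adjusted p = 0.0995), and it passed without replicate 5 or 6 (1.02 and 1.05, adjusted p = 0.0488 and 0.0384). In Arg1 cells, 1138 and 767 CPM in control mice stood against 1936.5, 2018 and 2474 CPM in cKO mice, and the log2 fold change was 1.21 ± 0.34 (SE, edgeR adjusted p = 0.102). The interferon list summed in the monocyte-like cells to 2177 to 3021 CPM in control and 4494 to 6315 CPM in cKO mice, where 5 of its 29 genes passed as higher, beside 0.647% of all genes, and none as lower (median 0.86, against 0.08 over all genes).

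The test of the difference itself was run for each member between monocyte-like cells and the other 6 classes. The change of Ms4a4c was smaller in monocyte-like than in macrophage-like cells by -1.29 ± 0.42 on the log2 scale (SE, unadjusted p = 0.00303), but the adjusted p was 0.383 (edgeR), in a contrast where 0.0719% of all genes passed. The shares were 0.0719% for lymphoid-like, 0.027% for dendritic cell-like and 0% for each of the other 3 classes. None of the 30 member differences passed at an adjusted p under 0.05. This fit has no term for the mouse, and a limma-voom fit that treats mice as a random effect gave -1.19 ± 0.41 (SE, adjusted p = 0.227). The within-mouse differences above are values of the kind by which the members were chosen, and they are not a test of this difference. A difference in the change of Ms4a4c between both classes did not pass over all genes, and a p that misses the threshold does not show that the changes were alike.

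In the joint edgeR fit, Ms4a7 was called in the Spon1 cells only. In Spon1 cells it was measured at 324, 288, 162 and 396 CPM in control and 561, 357, 1113 and 531 CPM in cKO mice. The ranges overlapped, as replicate 6 lay below control replicate 4, and replicate 7 was the highest. The log2 fold change was 1.02 ± 0.27 (SE, edgeR adjusted p = 0.0461), and the call did not hold without replicate 1, 2, 3 or 7 (adjusted p = 0.113, 0.158, 0.132 and 0.53), with 0.65 as the log2 fold change without replicate 7. In these cells the macrophage list summed to 11849 to 19668 CPM in control and 13614 to 23608 CPM in cKO mice, where replicate 7 was again the highest. The interferon list summed to 1146 to 1445 and 3184 to 6421 CPM. Of its 29 genes, 14 were higher, beside 0.602% of all genes, and none lower (median 1.78, against -0.08 over all genes). Their part in the change of Ms4a7 was not tested. In macrophage-like cells, where Ms4a7 is abundant, it was measured at 1389, 1573, 1361 and 1536 CPM in control and 1503, 1976 and 1444 CPM in cKO mice. The groups overlapped, with a log2 fold change of 0.13 ± 0.27 (SE, edgeR adjusted p = 0.94). In Arg1 cells it was 141 CPM in both control mice and 322, 294 and 443 CPM in cKO mice, with a log2 fold change of 1.33 ± 0.39 (SE, edgeR adjusted p = 0.137).

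Among the Ms4a6 members, none passed within a class in the joint edgeR fit, and their log2 fold changes in monocyte-like, macrophage-like, Spon1, Arg1 and Cebpb cells were all above 0. Outside these classes, Ms4a6d was at -0.20 in dendritic cell-like and Ms4a6c at -0.15 in lymphoid-like cells, while their other values there and those of Ms4a6b were above 0. Across the 5 classes named first, Ms4a6d had the widest range of the Ms4a6 members. In monocyte-like cells it was measured at 621, 595 and 858 CPM in control and 718, 1996 and 1470 CPM in cKO mice. Replicate 6 lay within the control range while replicates 7 and 8 lay above it, and the log2 fold change was 1.16 ± 0.34 (SE, edgeR adjusted p = 0.113). It passed without control replicate 4 (1.34, adjusted p = 0.0442). In the other 4 of these its log2 fold change was between 0.32 and 0.61. Ms4a6b in monocyte-like cells was measured at 972, 911 and 1096 CPM in control and 1157, 1410 and 1459 CPM in cKO mice, with a log2 fold change of 0.57 ± 0.21 (SE, edgeR adjusted p = 0.287). Across these 5 it ranged from 0.20 in macrophage-like to 0.78 in Arg1 cells, and Ms4a6c from 0.26 in Spon1 to 0.45 in Cebpb cells.

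**Figure D3:**
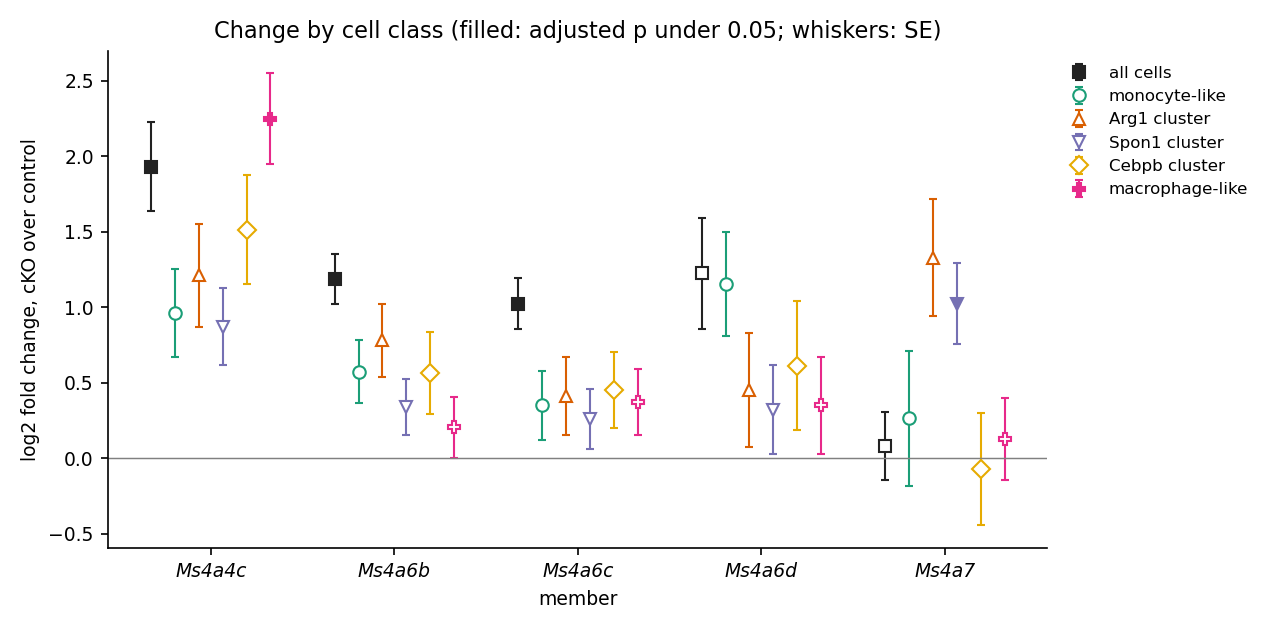
Log2 fold change of each member in cKO over control mice, in all cells and in 5 classes, with whiskers of 1 SE from edgeR and filled symbols where the adjusted p was under 0.05. Ms4a4c stands at 2.25 in macrophage-like cells, and the Ms4a6 members stand lower within each class than in all cells summed.

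The share of cells with a UMI of a member is given beside its level. Each cell was thinned to 1000 UMIs so that depth could not set the share, and 5 to 45 cells per mouse below that depth were left out. A thinned share rises with the number of cells that carry a member and with its level per cell, without separating these. In Spon1 cells, Ms4a6c went from 72.5% in control to 77.7% in cKO mice thinned, but from 98.8 to 97.7% unthinned. A share over all cells also moves with the cell makeup. Ms4a4c was found in 25.2, 18.0, 19.7 and 34.0% of the cells of the control mice and in 46.2, 49.3, 68.7 and 55.7% of those of the cKO mice. All cKO mice were above all control mice (two-sided exact permutation p = 0.0286, unadjusted for the 5 members like the other p-values of shares, the smallest that 4 against 4 mice allow). The shares of Ms4a6b (35.4 ± 2.75% in control, 54.1 ± 5.04% in cKO mice) and Ms4a6c (50.6 ± 5.93% and 68.8 ± 4.49%, SD, n = 4 each) were also separate, both with an exact permutation p of 0.0286. Those of Ms4a6d (32.0 ± 8.002% and 47.7 ± 14.4%, exact permutation p = 0.114) and Ms4a7 (23.8 ± 6.03% and 22.7 ± 5.12%, exact permutation p = 0.771) overlapped. Over all genes, how often the shares of cells separate in this way was not measured. For these and the later shares, separation is therefore only a description of members chosen by their change. Unthinned, Ms4a4c was found in 49.5% of control and 75.6% of cKO cells on average over mice, with an unadjusted exact permutation p of 0.0286. Ms4a6c, unthinned, was found in 78.5 and 87.5%, and its exact permutation p was then 0.0857.

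In macrophage-like cells the thinned share of Ms4a4c was 10.1, 7.13 and 12.4% in control replicates 1, 2 and 4 and 26.5, 46.6 and 42.7% in cKO replicates 6, 7 and 8. These values did not overlap, although an exact permutation test of 3 against 3 mice cannot go below p = 0.1. Ms4a7 was found in 66.4, 70.6 and 65.5% of the same control cells and in 62.3, 79.2 and 73.8% of the cKO cells, which overlapped. As a measure of background, 0.785% of the stromal-like cells of control mice had a thinned UMI of Ms4a4c and 1.53% one of Ms4a7, while unthinned 2 of 68 such cells had Ms4a4c (2.94%, Wilson 95% interval 0.81 to 10.1%, for counting error only). The 18 stromal-like cells of cKO mice were higher, at 3.32% for Ms4a4c and 3.11% for Ms4a7 thinned, and unthinned 3 of 18 held Ms4a4c (16.7%, 5.84 to 39.2%). The median UMI count was 4824 in the control and 5187 in the cKO stromal-like cells, and 4306 and 1952 in control and cKO macrophage-like cells.

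Monocyte and macrophage members were also found in the same cells. Of the cells with a thinned UMI of Ms4a7, the share that also held Ms4a4c was 15.9, 9.05, 12.1 and 22.2% in control and 36.0, 43.2, 62.7 and 56.1% in cKO mice. All cKO mice lay above the control mice. Within macrophage-like cells this share was 7.94, 6.89 and 6.52% in control and 23.6, 48.0 and 45.7% in cKO mice. Within Spon1 cells it was 26.9 to 39.0% in control and 53.9 to 68.2% in cKO mice. Among all thinned cells, with or without Ms4a7, Ms4a4c was found in 24.2% of control and 54.9% of cKO cells on average over mice. In macrophage-like cells these means were 9.86 and 38.6%, and in Spon1 cells 41.3 and 59.1%. Cells with Ms4a7 thus did not hold Ms4a4c clearly more often than the cells of their class. Ms4a6c, which both stages carry, was found in 57.1 to 67.8% of the Ms4a7 cells of control and 73.5 to 76.5% of those of cKO mice. Doublet calls were more frequent in cKO mice as a group, and 24 of their 58 fell in replicate 5. These shares were not computed without the doublet calls, and the part of doublets in them was not tested. For the level of Ms4a4c in macrophage-like cells, not its share, the log2 fold change without doublet calls was 2.24 (edgeR adjusted p = 8.44e-07).

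**Figure D4:**
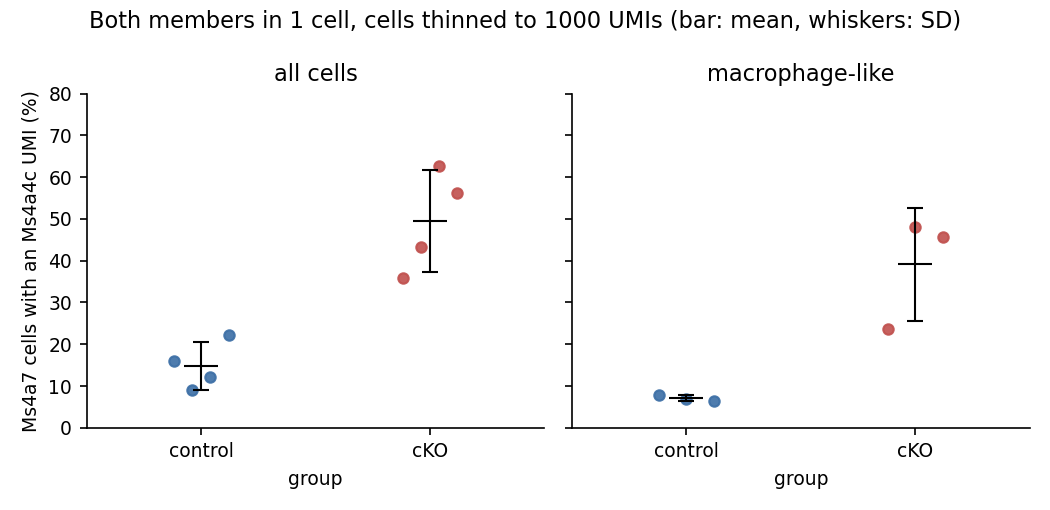
Percent of the cells with a UMI of Ms4a7 that also held a UMI of Ms4a4c, in all cells and in macrophage-like cells, after thinning to 1000 UMIs, with 1 point per mouse, a bar at the mean and whiskers of 1 SD. In macrophage-like cells the control mice sit between 6.52 and 7.94% and the cKO mice between 23.6 and 48.0%.

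The other 9 Ms4a genes of the table were sparse. Of these, 5 passed the filter, 2 were higher in cKO mice and none lower (median log2 fold change 0.68, against -0.03 over all genes). Over all genes, 2.99% were called higher, and 4% had every cKO mouse above every control mouse (5.86% after TMM scaling). Ms4a4b, known from T cells, was measured at 21.8, 20.8, 17.0 and 27.9 CPM in control and 86.4, 55.0, 89.7 and 70.9 CPM in cKO mice. The groups were separate, with a log2 fold change of 1.84 ± 0.21 (SE, edgeR adjusted p = 0.000726). Ms4a4a, known from alternatively activated macrophages, was measured at 9.83, 7.65, 15.3 and 14.8 CPM in control and 78.4, 37.5, 30.2 and 23.6 CPM in cKO mice, also separate and with replicate 5 as the highest. Its log2 fold change was 1.87 ± 0.36 (SE, edgeR adjusted p = 0.0154). Ms4a8a (0.68, adjusted p = 0.245), Ms4a4d (-0.63, 0.455) and Ms4a14 (-0.15, 0.925) did not pass. Ms4a1, the gene of CD20, had 19 UMIs in all cells and was not tested, nor were Ms4a2, Ms4a3 and Ms4a10. Sequence shared with other genes can limit these values, and its effect on counts of 3′ ends was not measured. Of the 58-base windows of Ms4a4c transcripts, 6.18% also occur in Ms4a4b. Windows found in another gene were 7.9% for Ms4a6c, 3.7% for Ms4a6b, 1.62% for Ms4a6d and 0 of 1786 for Ms4a7. For Ms4a6c these genes were Ms4a6b and others outside the Ms4a family, such as Maoa and Mtm1.

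Tmem176a and Tmem176b, more distant relatives with the same kind of membrane topology, went the other way in all cells. Tmem176a was measured at 735, 635, 474 and 567 CPM in control and 275, 390.0, 283 and 409 CPM in cKO mice. Every cKO mouse was below every control mouse, as 8.34% of all genes were, and the log2 fold change was -0.73 ± 0.18 (SE, edgeR adjusted p = 0.0381), where 1.48% of all genes were called lower. Tmem176b was at -0.60 ± 0.16 (SE, edgeR adjusted p = 0.0577). In all cells, 27 of the 29 interferon response genes tested were higher in cKO mice and none lower (median log2 fold change 1.83). Of the 10 monocyte markers, 7 were higher and none lower (median 1.70). Both counts stand beside 2.99% of all genes called higher.

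Over the 46 sums of 1 mouse and 1 class, the members fell into unlike company, given here as a description over points that share mice and depth. Ms4a4c was most like Slfn2 (Pearson's r = 0.913), Oas1a (0.88) and 1600014C10Rik (0.877). Ms4a6b was most like Ms4a6c (r = 0.952), Ms4a6d (0.93) and the Fc receptor gene Fcgr1 (0.921). Ms4a6c was most like Ctss (0.961), which encodes the protease cathepsin S, and after Ms4a6b most like Tyrobp (0.95), the adaptor DAP12. Ms4a6d was most like Ms4a6c (0.947), Cd14 (0.942) and Ctss (0.935). Ms4a7 was most like C1qb (0.948), C1qa (0.942) and C1qc (0.936), the chains of complement C1q, and its r with Ms4a4c was 0.24.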

How the data were processed

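Per the labels and the study's methods, 3000 sorted cells per well were loaded for droplet 3′ sequencing, 1 well per mouse, and the authors aligned reads to mm10 with Cell Ranger (STAR 2.5.3a), merged wells without down-sampling and deposited raw UMI counts of 16889 genes in 5947 barcodes, before their filters on cells. Cells were kept here by the stated filters, at a log10 UMI count of at least 2.8, log10 genes of at least 2.6, at most 5% mitochondrial UMIs (13 genes) and no hemoglobin UMI (4 genes). Doublets were called with Scrublet (scanpy 1.11.5) and kept.

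Cells were clustered with scran 1.30.0 (8 principal components, Ward linkage, 9 clusters, 11947 genes) after 220 genes were left out, among them all Ms4a genes, Tmem176a, Tmem176b, Slc3a2 and the genes that the study lists as changed. A cluster was named where at least 3 fixed markers were among its leading 10 genes. UMIs were summed per mouse, and per mouse and class with at least 20 cells, and tested with edgeR 4.0.16 (TMM, quasi-likelihood test, R 4.3.3) on genes above 1 CPM in at least 3 sums and detected in at least 20 cells, with Benjamini-Hochberg adjustment over all genes and a threshold of 0.05. The 7 classes tested shared 1 fit of 46 sums, in which the mouse was not a term. The scripts were tested on simulated counts with 200 genes changed 4-fold and an assumed coefficient of variation of 0.3. The fit recovered 153 of them in all cells, with 12 wrong calls. Within classes it recovered 94 in Spon1, 90 in macrophage-like, 77 in monocyte-like and 74 in dendritic cell-like cells. In Arg1, lymphoid-like and Cebpb cells it recovered 32, 23 and 22. A member that did not pass within a class is therefore not shown to be unchanged.

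The members, marker lists and interferon list were chosen with earlier results of these data known. Named genes were the 5 members, every other Ms4a gene, Tmem176a and Tmem176b, Slc3a2 and the 3 genes most correlated with each member on log2(CPM + 10). DESeq2 1.42.0, a likelihood ratio test, limma-voom (limma 3.58.1) and other filters and clusterings were tried. Confidence intervals cover counting error only, and the median of 4149 to 5538 UMIs per cell leaves low genes undetected in many cells.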

Additional observations from a re-analysis of the deposited data

Results flagged for a closer look

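In macrophage-like cells of the 4 control mice, replicate 3 lay far from the others for 2 members. Its Ms4a6b level was 874 CPM, while the other mice had 614 to 639 CPM, a gap of 0.905 of the whole range, which is above Dixon's critical value for 4 samples. Its Ms4a6c level was 1341 CPM against 952 to 976 CPM in the others, a gap of 0.939 of the range. Replicate 3 contributed 22 macrophage-like cells, and its interferon list summed to 3159 CPM there, against 937 to 1396 CPM in the other control mice. In all, 40 groups were checked, and chance marks about 1 in 20.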

How the results depend on the processing

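No paired analysis was possible because control and cKO mice share no replicate number in the labels. Past an adjusted p of 0.05 in each setting run, the main one included, were Ms4a4c in macrophage-like cells (22 of 22 settings) and Ms4a4c, Ms4a6b and Ms4a6c in all cells (17 of 17 each). Cutting into 12 clusters gave every class the same cells as the main clustering, so that setting only repeats the main fit within classes. With 7 clusters the monocyte-like and macrophage-like cells were also unchanged, while the Spon1 class grew to 1062 cells by taking in the Arg1 and Cebpb cells. Ms4a6d in all cells passed in 5 of 17, among them DESeq2 (1.23, adjusted p = 0.0385), the edgeR likelihood ratio test (1.23, 0.0245) and no low-count filter (1.24, 0.0172), and ranged from 0.77 to 1.48 when 1 mouse was left out. Ms4a7 in Spon1 cells passed in 10 of 19, and not with each class fitted alone (edgeR adjusted p = 0.134) or by limma-voom (0.0703). Ms4a4c passed in 3 of 20 settings in monocyte-like, 6 of 19 in Spon1, 5 of 18 in Arg1 and 4 of 19 in Cebpb cells, Ms4a6d in 3 of 20 and Ms4a6b in 1 of 20 in monocyte-like cells, Ms4a6b in 3 of 18 and Ms4a7 in 2 of 18 in Arg1 cells, and the difference of Ms4a4c between monocyte-like and macrophage-like cells in 1 of 21 (no low-count filter, edgeR adjusted p = 0.0272).

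The log2 fold change of Ms4a7 changed sign around 0. In all cells it was -0.018 by library size only, -0.033 without control replicate 3 and cKO replicate 5, -0.57 in monocyte-like, macrophage-like, Spon1, Arg1 and Cebpb cells only and -0.099 to 0.24 with 1 mouse left out. In macrophage-like cells it was -0.035 with clustering on all genes, -0.072 in the full-depth cluster alone, a split added after the data were seen, and -0.046 to 0.20 with 1 mouse left out (-0.046 without replicate 7). In Cebpb cells it was 0.033 with clustering on all genes and -0.60 to 0.17 with 1 mouse left out (0.05 without replicate 1 or 2, 0.17 without replicate 6), and in monocyte-like cells -0.20 to 0.83 (-0.20 without replicate 8). The difference in its share of cells was -3.76 to 0.83 percentage points with 1 mouse left out (0.02, 0.81 and 0.83 without replicates 1, 2 and 6). The share of Ms4a6c differed by 9.04 points unthinned (exact permutation p = 0.0857), and the monocyte-like minus macrophage-like difference of Ms4a6b was 0.50 with the low-depth cluster alone. That of Ms4a6d fell to 0.040 ± 0.56 (SD) with the low-depth cluster alone and was 0.67 ± 0.52 with the full-depth cluster alone.

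Counts of genes called moved more. In all cells (510) they were 1038 by the likelihood ratio test, 787 without a low-count filter and 145 to 712 with 1 mouse left out (166, 145, 187 and 267 without replicates 1, 2, 7 and 8). In monocyte-like cells (83) they were 131 by the likelihood ratio test, 153 fitted alone, 193 by limma-voom, 216 without a filter, 43 with clustering on all genes and 30 to 112 with 1 mouse left out. In macrophage-like cells (70) they were 119 by limma-voom, 142 without a filter, 42 and 11 in the full-depth and low-depth clusters alone and 28 to 89 with 1 mouse left out. In Spon1 cells (88) they were 149 by the likelihood ratio test, 183 without a filter and 49 to 133 with 1 mouse left out. They were 169 with 7 clusters, where this class also held the Arg1 and Cebpb cells. In Arg1 cells (57) they were 142 without a filter, 86 with clustering on all genes and 19 to 74 with 1 mouse left out, where a lone control mouse is assumed to vary like the others. In Cebpb cells (1) they were 38 by DESeq2, 17 by the likelihood ratio test, 35 fitted alone, 3 by limma-voom, 6 with at least 10 cells per sum, 58 without a filter, 13 with clustering on all genes, 45 with graph clustering and 1 to 26 with 1 mouse left out. With 7 clusters the Arg1 and Cebpb cells, with clustering on all genes the Spon1 cells and with graph clustering the Arg1 cells gave no value. The cause of these shifts was not tested.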
